A study of Mus musculus with 4 samples.

Results

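The data describe 10 genes of activated endothelium (Sele, Selp, Vcam1, Icam1, Lrg1, Igfbp3, Stab1, Pdlim1, Phlda1 and Tmem176a) among the 21861 features of 4 single-cell RNA sequencing libraries from a mouse brain tumor. The genes are adhesion molecules and genes picked because their levels were higher in endothelial cells (EC) of older mice, so the age comparison in EC is given for them as a description, without a test. Each library is the tumor of 1 mouse that carries hGFAP-cre and lsl-MYCN, in which a Cre recombinase under the human GFAP promoter switches on human MYCN with a luciferase reporter in neural precursors and their descendants. Mice 4 and 5 were 43 days old (P43) and mice 6 and 7 were 70 days old (P70). All 4 mice carry the tumor alleles. The study's text gives olfactory bulb and tumor tissue as the source, and no value here separates vessels of the tumor from those of the bulb. Each mouse is its own library, so that mouse and library cannot be told apart. EC made up 1278 of the 10975 cells kept, with 450 and 498 EC in the P43 mice and 294 and 36 EC in the P70 mice.

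Endothelium at rest keeps leukocytes out of the tissue, and endothelium exposed to inflammatory signals places adhesion molecules on its surface that slow down, hold and let through circulating leukocytes. Selectins catch leukocytes in flow, and ICAM-1 and VCAM-1 then hold them through integrins. In the healthy brain these molecules are scarce, and leukocyte entry takes place mainly across the veins that follow the capillaries.

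Libraries differed in depth and in their other cells. The files held 13106786 to 40621958 unique molecular identifiers (UMIs, counts of single RNA molecules) per mouse, and EC had a median of 1103.5 to 3644.5 UMIs per cell. The 36 EC of mouse 7 held 74693 UMIs in all, so that 1 UMI there equals 13.4 CPM, and a count of 0 allows up to 40.2 CPM. A level below is always in CPM, the UMIs of a gene per 1000000 UMIs of the same cells. Any pair of libraries shared 1 to 3 cell barcodes. The 12 EC-defining genes were all detected in EC of every mouse, with Cldn5, a tight junction protein, at 6335, 6325, 4698 and 3494 CPM in mice 4 to 7. The sex labels of the P43 libraries go against 4 Y-linked genes, which summed to 225 CPM in the non-tumor cells of the library labelled female (mouse 4) and to 0.616 in the library labelled male (mouse 5). Both carry the same age, and no comparison by sex was made. The values of mice 6 (187) and 7 (0) matched their labels. RNA of other classes in EC also differed between mice, with Myeloid markers highest in mouse 6 and hemoglobin lower at P70. The 12 Myeloid markers summed to 56.0, 23.0, 486 and 80.3 CPM in EC of mice 4 to 7, with 6, 5, 12 and 1 of them detected, and the hemoglobin gene Hbb-bs stood at 1373, 1281, 24.1 and 0.

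The selectins were nearly absent from these vessels. Sele encodes E-selectin, which endothelium makes only after stimulation. It had 0 UMIs in the 450 and 498 EC of the P43 mice, 10 UMIs in 6 of 294 EC of mouse 6 and 0 in the 36 EC of mouse 7. All 10 UMIs came from EC that carried vein genes, and 1 cell held 5 of them. A count of 0 over the P43 EC allows up to 3 UMIs. From pooled UMIs, all 10 of them from mouse 6, the counting interval of the ratio of P70 to P43 starts at 5.165. That interval covers counting error only and is no minimum for the age group. The age groups overlapped, since mouse 7 was also at 0, and the limit of 40.2 CPM there lies above the level of 8.32 in mouse 6. Selp encodes P-selectin, which endothelium and platelets store in granules. It had 0 and 0 UMIs in P43 EC, 3 UMIs in mouse 6 and 1 UMI in mouse 7, which is at or under the counting limit in both age groups.

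Both selectin genes lie on chromosome 1 on the plus strand, Sele at chr1:164048234-164057677 and Selp at chr1:164115264-164150026 (mm10, protein coding), and Tmem176a lies on chromosome 6 at chr6:48840919-48847071. RefSeq promoters (GRCm38.p6, the same build) were found for 8 of the 10 genes, not for Vcam1 and Phlda1. The 250 bases before the start are shown for the genes with a match to an NF-kB motif, an AP-1 motif (TGANTCA) or a TATA motif (TATAAA, in the gene's direction only). The NF-kB motif was strict: GGG, A or G, 2 free bases, 2 of C or T, then CC. Capitals mark the matches. The NF-kB and AP-1 motifs were searched on both strands, and no match overlapped another. The Tmem176a window, the first of 2 RefSeq starts, lies between the first exons of longer GENCODE transcripts.
Sele, chr1:164047984-164048233, plus strand: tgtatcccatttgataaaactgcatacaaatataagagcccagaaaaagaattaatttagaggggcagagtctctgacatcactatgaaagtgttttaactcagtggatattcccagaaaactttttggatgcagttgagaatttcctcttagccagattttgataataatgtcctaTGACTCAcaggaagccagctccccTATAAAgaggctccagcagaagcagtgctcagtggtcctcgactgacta
Selp, chr1:164115014-164115263, plus strand: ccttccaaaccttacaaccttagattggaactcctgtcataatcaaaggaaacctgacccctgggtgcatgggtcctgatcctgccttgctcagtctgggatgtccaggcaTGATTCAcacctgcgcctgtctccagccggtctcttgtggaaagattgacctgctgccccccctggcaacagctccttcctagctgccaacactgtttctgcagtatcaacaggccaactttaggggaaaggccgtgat
Tmem176a, chr6:48841233-48841482, plus strand: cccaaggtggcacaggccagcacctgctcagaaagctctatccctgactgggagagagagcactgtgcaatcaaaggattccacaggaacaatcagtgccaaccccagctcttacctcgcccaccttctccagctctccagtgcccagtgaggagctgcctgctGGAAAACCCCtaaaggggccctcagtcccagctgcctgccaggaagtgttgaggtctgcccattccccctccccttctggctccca
The AP-1 motif of Sele began 73 bases before the start and its TATA motif 49 bases before it. The AP-1 motif of Selp began 139 bases and the NF-kB motif of Tmem176a 86 bases before the start. Of all 32851 promoters, 7.25% held the NF-kB motif, 6.75% the AP-1 motif and 7.59% the TATA motif in this window, against 1, 2 and 1 of the 8 genes. The promoters of Lrg1, Igfbp3, Icam1, Pdlim1 and Stab1 held none of these exact motifs in this window. Sites that depart from these letters were not searched, so a window without a match can still hold such a site.

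Vcam1 and Icam1 carry the firm adhesion step. Vcam1 encodes VCAM-1, the ligand of the integrin of Itga4 and Itgb1. Its level in EC was 49.9 and 24.0 CPM in the P43 mice and 114 and 134 in the P70 mice, from 49, 47, 137 and 10 UMIs. Few cells carried it: 14 of 450, 16 of 498, 41 of 294 and 1 of 36 EC. The 10 UMIs of mouse 7 all came from that 1 cell, and in mouse 6 a single cell held 38.7% of the UMIs. Icam1 encodes ICAM-1, the ligand of the integrins that share Itgb2. It stood at 32.6 and 37.8 CPM at P43 and at 181 and 147 at P70, in 22, 46, 70 and 6 EC. The mean P70 level was 3.36 times the mean P43 level for Vcam1 and 4.67 times for Icam1, and for neither gene did the age groups overlap.

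**Figure D1:**
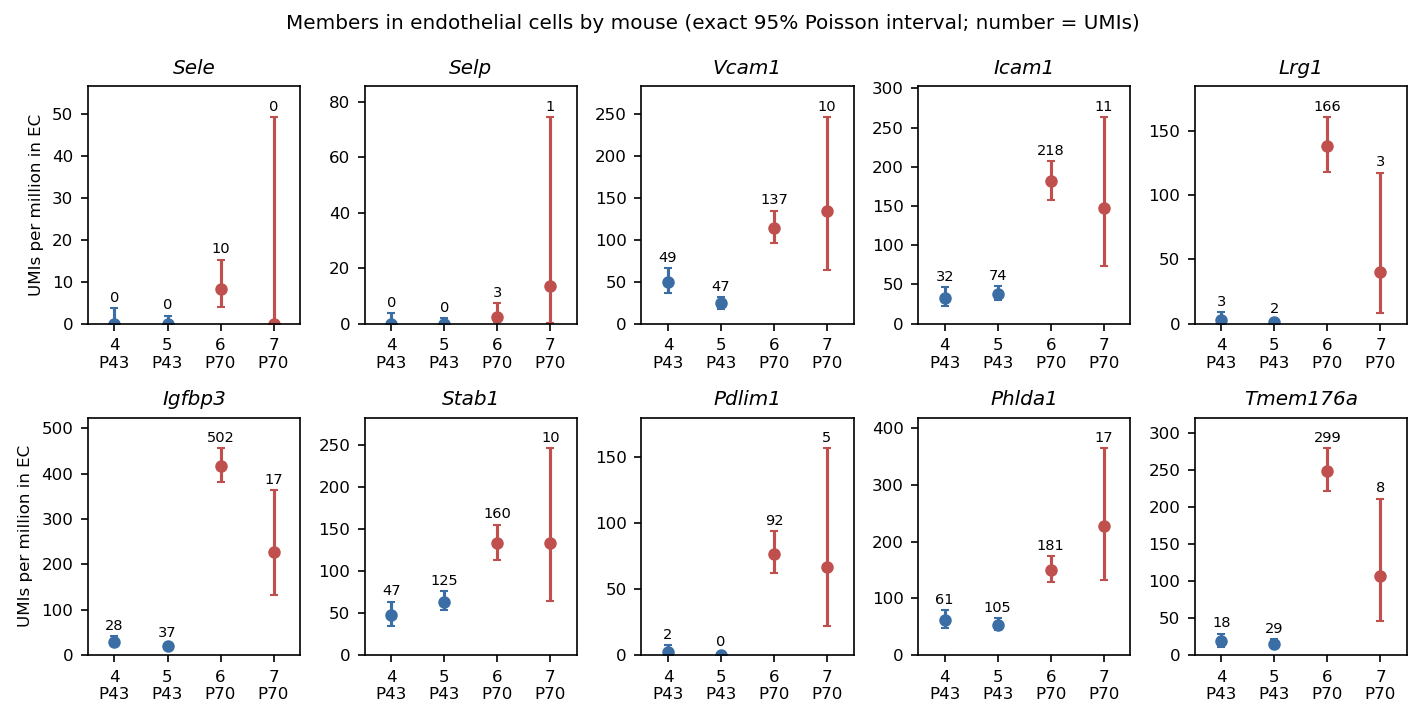
Level of each of the 10 genes in EC of each mouse, in CPM on a linear axis that starts at 0 and differs between panels, with the exact 95% Poisson interval of the count as bars and the number of UMIs printed above. Both P70 mice lie above both P43 mice for 9 genes, and the intervals of mouse 7 (36 EC) are the widest.

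Lrg1 and Igfbp3 encode secreted proteins. LRG1 is a glycoprotein that changes TGF-beta signalling in vessels. Lrg1 had 3, 2, 166 and 3 UMIs in EC of mice 4 to 7, or 3.05, 1.02, 138 and 40.2 CPM. In each P43 mouse 1 cell held all of them, whereas 62 of 294 EC of mouse 6 carried the gene. Igfbp3 encodes a binding protein of insulin-like growth factors. Its level was 28.5 and 18.9 CPM at P43 and 418 and 228 at P70, carried by 22, 17, 101 and 4 EC. The mean at P70 was 322.6 ± 134 CPM against 23.7 ± 6.80 at P43 (SD, n = 2 mice each), a ratio of 13.6.

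The other 4 genes act on the surface or inside the cell. Stab1 encodes stabilin-1, a scavenger receptor of sinusoidal endothelium and macrophages, and stood at 47.8, 63.8, 133 and 134 CPM in mice 4 to 7. This was the smallest ratio among the members, 2.39. Pdlim1 encodes an adaptor on actin fibers and had 2, 0, 92 and 5 UMIs. From the UMIs of both mice of an age its level was 112 times that at P43, with a counting interval of 30.1 to 936, since P43 held 2 UMIs in all. Phlda1 encodes a regulator of growth factor signalling and of cell death. Its level was 62.1 and 53.6 CPM at P43 and 151 and 228 at P70. Tmem176a encodes a membrane channel protein of myeloid cells and stood at 18.3 and 14.8 CPM at P43 and at 249 and 107 at P70.

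Thus 9 of the 10 genes, all but Sele, were higher in both P70 mice than in both P43 mice. Of 13883 genes with a UMI in EC, 13.9% showed that order, and since the members were picked on it nothing is read from the count. The 9 include Selp, which rests on 3 and 1 UMIs. When EC with any UMI of 12 markers of Myeloid cells, mural cells, oligodendrocytes or neutrophils were left out, 7 of the 10 kept the order, with Lrg1 at 0 UMIs in mouse 7 (22 EC left) and Selp at 0 there. The 7 genes then stood between 93.0 (Pdlim1) and 437 (Igfbp3) CPM in mouse 6. If Myeloid RNA entered EC of mouse 6 in the share of the Myeloid markers, 2.87% of their level in Myeloid cells, it would bring 5.24 CPM of Tmem176a against 249 measured and 2.29 of Icam1 against 181.

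Cells were also compared at equal depth. After each EC was thinned to 2000 UMIs, which left out 251, 101, 145 and 26 EC, the mean number of members per cell was 0.342 and 0.328 in the 199 and 397 P43 EC left and 1.79 and 1.5 in the 149 and 10 P70 EC left. At least 3 members were found in 2.51% and 0.504% of P43 EC, in 28.2% of EC of mouse 6 and in 1 of 10 EC of mouse 7. Mural cells at this depth held a mean of 0.969, 0.916, 1.23 and 1.53 members in mice 4 to 7. Myeloid cells held 1.08, 0.984, 0.522 and 0.8315. Both classes were above EC in the P43 mice, and mural cells of mouse 7 (15 cells) were near its EC. At least 3 members were found in 7.63% of mural cells of mouse 6 and in 3 of 15 of mouse 7. By gene, thinned EC with Igfbp3 were 6.03% (exact 95% interval 3.15 to 10.3) and 3.02% (1.57 to 5.22) at P43, and 34.9% (27.3 to 43.1) and 3 of 10 cells (6.67 to 65.3) at P70. Without thinning, Igfbp3 was in 4.89%, 3.41%, 34.4% and 11.1% of EC. Icam1 was in 5.03% and 5.54% of thinned EC at P43 and in 21.5% and 2 of 10 cells at P70, and in 0.142%, 0%, 0.339% and 0.16% of thinned OL-like tumor cells, which should lack it. Without thinning, 28 of the 294 EC of mouse 6 carried both Lrg1 and Icam1. That is 45.2% of the 62 EC with Lrg1 and 40.0% of the 70 with Icam1. Of the 6 EC with Sele before thinning, 5 also carried Icam1. Depth was not matched in these overlaps, and they are a description.

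The next question was how far these genes belong to EC within a tumor. Igfbp3 was the only member higher in EC than in mural, Myeloid and oligodendrocyte-like (OL-like) tumor cells in each of the 4 mice, against 7.54% of the 13883 genes. It was not highest in EC among all classes. Oligodendrocyte precursor cells (OPC) held 121 CPM of Igfbp3 in mouse 5 (17 UMIs in 22 cells) and 191 in mouse 4 (2 UMIs in 5 cells), above EC of those mice, and 65.3 in mouse 7 (112 cells), below its EC. Myeloid cells are macrophages and microglia, and mural cells are pericytes and smooth muscle cells with a small fibroblast cluster. Such class comparisons follow from the clustering and carry no test. In the 40 pairs of a gene and a mouse, EC were above all 3 classes in 19. No share over all genes is given by pair, so nothing is read from this number. It includes Lrg1 in mice 4 and 7, with 3 UMIs in EC of each. It also includes Selp in mice 6 and 7, with 3 and 1 UMIs.

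**Figure D2:**
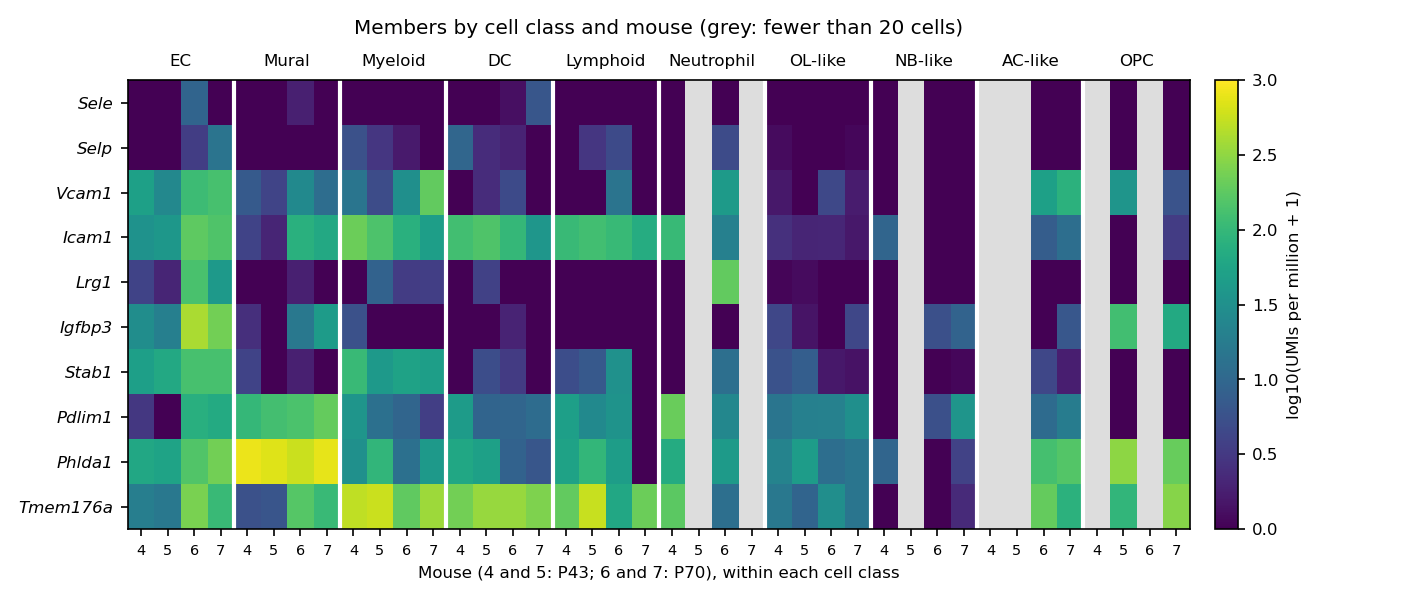
Level of each gene (rows) in each cell class and mouse (columns) as log10 of CPM plus 1, on a color scale from 0 to 3, with grey where a mouse had fewer than 20 cells of the class. Phlda1 is highest in mural cells and Tmem176a is high in Myeloid cells and DC, while Igfbp3 is high in EC and, in mice 5 and 7, in OPC.

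Igfbp3, Vcam1, Stab1 and Icam1 were higher in EC than in mural and OL-like cells of every mouse. For Icam1 against mural cells of mouse 7 the counting interval of the ratio was 0.777 to 7.55. Lrg1 was higher in EC than in both classes in mouse 6. In mouse 7 it had 3 UMIs in EC and 0 in mural cells, with a counting interval of the ratio that starts at 0.517. Its 3.05 and 1.02 CPM in P43 EC lie within the 4.57 and 3.08 CPM that 0 UMIs allow in mural cells there. Igfbp3 was 18.7 times as high in EC as in mural cells of mouse 4 (counting interval 3.09 to 764, from 1 mural UMI). It was at least 4.74-fold higher in mouse 5 (lower end of the interval, from 0 mural UMIs), and 28.2 (17.7 to 48.0) and 5.32 (1.73 to 21.7) times as high in mice 6 and 7. Stab1 was also high in Myeloid cells, at 108, 39.4, 53.2 and 46.7 CPM, and exceeded EC in mouse 4. Vcam1 in Myeloid cells exceeded EC in mouse 7, at 187 against 134 CPM. Astrocyte-like tumor cells held 0, 78.5, 50.4 and 82.9 CPM of Vcam1 in mice 4 to 7. This was above EC in mouse 5, from 7 UMIs in 9 cells. Lrg1 outside EC was mainly in neutrophils, with 97 UMIs in 99 cells of mouse 6 (187 CPM), whereas the 10 neutrophil markers summed to 40.8 CPM in EC of that mouse against 165900 in its neutrophils.

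Icam1 and Tmem176a were shared with leukocytes. Icam1 in Myeloid cells was 211, 146, 79.7 and 46.7 CPM and thus above EC in both P43 mice and below EC in both P70 mice. Tmem176a in Myeloid cells was 512, 580, 183 and 366, above EC in 3 of 4 mice. Lymphoid cells held 105.6, 124, 103.6 and 71.2 CPM of Icam1 and 187, 557, 62.2 and 213.5 CPM of Tmem176a. In mouse 7 EC and mural cells held Tmem176a at about the same level, 107 CPM each from 8 and 10 UMIs (counting interval of the ratio 0.343 to 2.81). Pdlim1 and Phlda1 were higher in mural cells than in EC in all 4 mice. Phlda1 reached 825, 707, 581 and 771 CPM in mural cells, so that EC held 0.0753, 0.0758, 0.259 and 0.295 of the mural level. Pdlim1 stood at 97.6, 126, 139 and 193 CPM in mural cells.

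Free RNA was checked with the EC-defining genes, which OL-like cells should lack. Summed over these 12 genes, OL-like cells held 1.11%, 0.359%, 0.435% and 0.321% of the EC level in mice 4 to 7. Thinned OL-like cells with Cldn5 were 5.81%, 1.45%, 3.05% and 0.0533%, against 90.0% to 100.0% of thinned EC, at median depths of 1521, 24112, 5695 and 12314 UMIs in OL-like cells before thinning. Igfbp3 was in 0.283%, 0%, 0% and 0.587% of the thinned OL-like cells. Cldn5 is far more abundant than Igfbp3 in EC, so the Cldn5 share sets no limit for free Igfbp3 RNA. Igfbp3 in OL-like cells was at 11.6%, 2.25% and 0% of its EC level in mice 4, 5 and 6. The highest EC-defining gene, Egfl7, was at 3.05%, 1.73% and 2.21%. Lrg1, Icam1, Stab1, Phlda1 and Tmem176a also exceeded Egfl7 in mice 4 and 5, and Vcam1 did not. In mouse 6 Lrg1, Icam1 and Stab1 were below Egfl7, and Vcam1, Pdlim1, Phlda1 and Tmem176a above. Pdlim1 in OL-like cells was at 671% of its EC level in mouse 4 and at 25.8% in mouse 6. In mouse 5 it had 90 UMIs in OL-like cells and 0 in EC. Phlda1 and Tmem176a in mouse 6 held 11.1 and 29.0 CPM in OL-like cells against 150.5 and 249 in EC. The Igfbp3 level in OL-like cells, 3.30, 0.425, 0 and 3.41 CPM, is low in all mice, and 0 of 295 thinned cells in mouse 6 allows a share of up to 1.02%. Intervals and limits cover counting error only.

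Age was then tested in the classes that the choice of genes did not use, with UMIs summed per mouse and edgeR's quasi-likelihood test across all genes (P70 against P43, n = 2 mice each, Benjamini-Hochberg adjusted p under 0.05). In mural cells 5 of the 10 genes passed the filter on low counts, and 3 of these were called higher and 0 lower, where 10.8% of the 8624 genes tested were higher and 7.76% lower. The 3 genes passed the filter only through their P70 counts, so nothing is read from their calls or from the number called. Without the filter each was called as well, with edgeR adjusted p of 4.67e-20 for Icam1, 2.24e-34 for Tmem176a and 0.000202 for Igfbp3. That fit shares its variance estimate with many nearly empty genes, so these smaller p are not read as stronger or as support. At P43 these genes held 3, 8 and 1 pooled UMIs. Icam1 in mural cells rose from 3.05 and 1.03 CPM at P43 to 78.9 and 64.2 at P70, a log2 fold change of 5.46 ± 0.49 (SE; edgeR adjusted p = 2.7e-05). At P43 it rests on 3 UMIs, and from pooled UMIs the ratio was 42.3, with a counting interval of 14.1 to 209. Tmem176a rose from 4.57 and 5.13 to 159.5 and 107 CPM (log2 fold change 5.09 ± 0.36, edgeR adjusted p = 8.12e-06). Igfbp3 rose from 1.52 and 0 to 14.8 and 42.8 (4.70 ± 1.01, edgeR adjusted p = 0.00712), and its 4 UMIs in mouse 7 came from 1 cell.

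The mural values were also computed without cells that carried RNA of other classes. With every mural cell that held a UMI of 12 markers of other classes left out, the log2 fold change of Tmem176a was 4.28 (edgeR adjusted p = 0.000201), while Icam1 and Igfbp3 no longer passed the filter. Icam1 then stood at 3.14, 2.05, 79.3 and 33.6 CPM and Igfbp3 at 0, 0, 13.2 and 134.5. The Myeloid markers in mural cells summed to 53.4, 48.2, 302 and 64.2 CPM, and in that share Myeloid RNA would bring 3.26 CPM of Tmem176a to mural cells of mouse 6. Without mouse 5 Igfbp3 lost its call (log2 fold change 3.63, edgeR adjusted p = 0.136). Without mouse 6 Icam1 and Igfbp3 did not pass the filter and have no test, and Tmem176a was called (4.53, edgeR adjusted p = 0.0133). Phlda1, although highest in mural cells, showed a log2 fold change of -0.03 ± 0.18 there (edgeR adjusted p = 0.947), and Pdlim1 0.62 ± 0.24 (edgeR adjusted p = 0.0973). Pdlim1 was called without the fibroblast cluster (0.71, edgeR adjusted p = 0.0406).

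**Figure D3:**
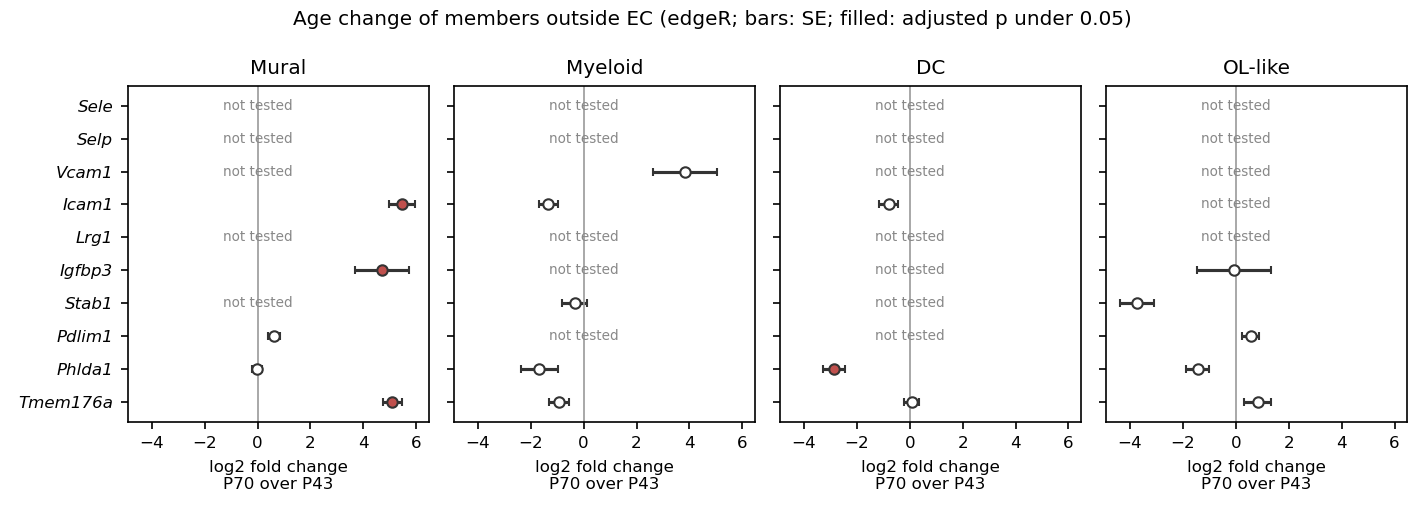
Log2 fold change of each gene at P70 over P43 in mural cells, Myeloid cells, DC and OL-like cells from edgeR, with the standard error as bars, filled points for an adjusted p under 0.05 and "not tested" for genes below the filter. Icam1, Igfbp3 and Tmem176a are filled on the right in mural cells, and Phlda1 is filled on the left in DC.

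Calls were few in leukocytes and tumor cells, and the difference from mural cells was not tested. In Myeloid cells edgeR called 0 of the 5 members tested, while 4 had an unadjusted p under 0.05 and DESeq2 called 1. Over all genes there, 0.162% of 5553 were higher and 0.18% lower. Vcam1 in Myeloid cells was 13.5 and 3.94 CPM at P43 and 30.03 and 187 at P70 (log2 fold change 3.83 ± 1.19, edgeR adjusted p = 0.239, and 0.00643 with DESeq2). Vcam1 passed the edgeR filter there only through its P70 counts, so nothing is read from its calls. Icam1 in Myeloid cells had a log2 fold change of -1.33 ± 0.37 (edgeR adjusted p = 0.198), and it was called lower without either P70 mouse. Without mouse 6 Vcam1 was called higher (4.74, edgeR adjusted p = 3.29e-16), and without mouse 7 Phlda1 and Tmem176a were called lower (-2.41 and -1.48).

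In dendritic cells (DC) 3 members were tested and 1 was called lower, where 0.735% of 5715 genes were lower and 0.84% higher. Phlda1 in DC fell from 60.7 and 49.8 to 7.75 and 5.27 CPM (log2 fold change -2.85 ± 0.42, edgeR adjusted p = 0.0193). It passed the filter only through its P43 counts, so nothing is read from its call. This call was lost without mouse 5, mouse 6 or mouse 7, with edgeR adjusted p of 0.693, 0.0863 and 0.311, and DESeq2 called 0 members. Icam1 in DC was called lower only without mouse 6 (-1.90, edgeR adjusted p = 0.00242). In OL-like cells edgeR called 0 of 5 members and 0.0% of 11532 genes in either direction, while 2 members had an unadjusted p under 0.05 and DESeq2 called 1, Stab1 (log2 fold change -3.77, DESeq2 adjusted p = 0.041). Stab1 passed the edgeR filter there only through its P43 counts. Over all genes 295 higher and 246 lower had an unadjusted p under 0.05 in edgeR, and DESeq2 called 50.

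RNA of the integrins and ligands that bind these adhesion molecules was found in leukocytes of both ages. Itga4, which forms the VCAM-1 receptor with Itgb1, stood at 346, 410, 379 and 231 CPM in Myeloid cells and at 299, 303, 676 and 506 in DC. Itgb2, shared by the ICAM-1 receptors, was 324, 302, 226 and 158 in Myeloid cells and 221, 207.5, 102 and 153 in DC. Selplg, the ligand of P-selectin, was 270, 183, 166 and 85.6 in Myeloid cells. Of the 6 counter-receptors tested (Itga4, Itgb1, Itgal, Itgam, Itgb2 and Selplg) edgeR and DESeq2 called 0 in either class, while 0 in Myeloid cells and 5 in DC had an unadjusted p under 0.05 by edgeR. The nearest was Itgam in DC, with a log2 fold change of -1.34 ± 0.29 (edgeR adjusted p = 0.0546).

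Position along the vessel was examined next, since adhesion molecules sit mainly on veins. EC were sorted by short lists of vein, artery, capillary and tip cell genes that hold no member, which placed 26, 51, 124 and 6 EC in the vein zone and 240, 271, 41 and 14 in the capillary zone in mice 4 to 7. Of these, 9, 30, 12 and 3 vein EC and 26, 73, 6 and 2 capillary EC lay near a border, with a score under 1.5 times that of the next zone. Vein EC held a median of 12, 32, 16.5 and 10.5 UMIs of the capillary list in mice 4 to 7. Capillary EC held 13.5, 35, 6 and 8, so the capillary list itself does not set these zones apart. Median depth was 1783.5, 4238, 3064.5 and 2137.5 UMIs in vein EC. It was 1696, 3530, 1045 and 952.5 in capillary EC, and depth was not matched between zones. Zone sizes are not compared between ages, because zone genes such as Vwf and Angpt2 changed with age themselves. Vein and capillary EC were compared within mice 4, 5 and 6, which had at least 10 cells of each.

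By edgeR with mouse as a term, Lrg1, Vcam1 and Icam1 were called higher in vein EC than in capillary EC. These are 3 of the 8 members that passed the filter, with 0 in the other direction. Over all genes 0.459% of 6530 were higher in vein EC and 0.245% in capillary EC. Lrg1 stood at 48.3, 8.85 and 196 CPM in vein EC of mice 4, 5 and 6 and at 0 in capillary EC of all of them (edgeR adjusted p = 1.82e-07, and 0.0122 with DESeq2). Of its UMIs in vein EC, 129 came from mouse 6 and 3 and 2 from the P43 mice. Lrg1 passed the filter only through its counts in vein EC. Vcam1 passed through its vein counts as well, since in capillary EC only mouse 6 reached the cutoff. The members were also picked on levels in these same EC, so the zone values of all members, Icam1 included, are a description. Nothing is read from their calls or from the number called. Icam1 was 32.2, 111 and 216 in vein EC against 30.7, 29.5 and 75.2 in capillary EC (log2 fold change 1.58 ± 0.35, edgeR adjusted p = 0.002). Vcam1 was 129, 164 and 88.2 in vein EC against 13.5, 1.90 and 105 in capillary EC (3.53 ± 0.45, edgeR adjusted p = 2.24e-12). The Vcam1 order thus held in both P43 mice and not in mouse 6. Without mouse 5 the Vcam1 and Icam1 calls were lost, with log2 fold changes of 1.35 and 1.10 (edgeR adjusted p = 0.848 for each). With DESeq2 they were lost at 3.06 and 1.43 (adjusted p = 0.312 and 1.0). In vein EC of mouse 5, 1 cell held 16 of the 37 Vcam1 UMIs. Without mouse 4 or mouse 6 Lrg1 did not pass the filter. Tmem176a was 64.5, 17.7 and 331 in vein EC against 7.69, 6.66 and 181 in capillary EC and was not called (1.38 ± 0.42, edgeR adjusted p = 0.091).

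**Figure D4:**
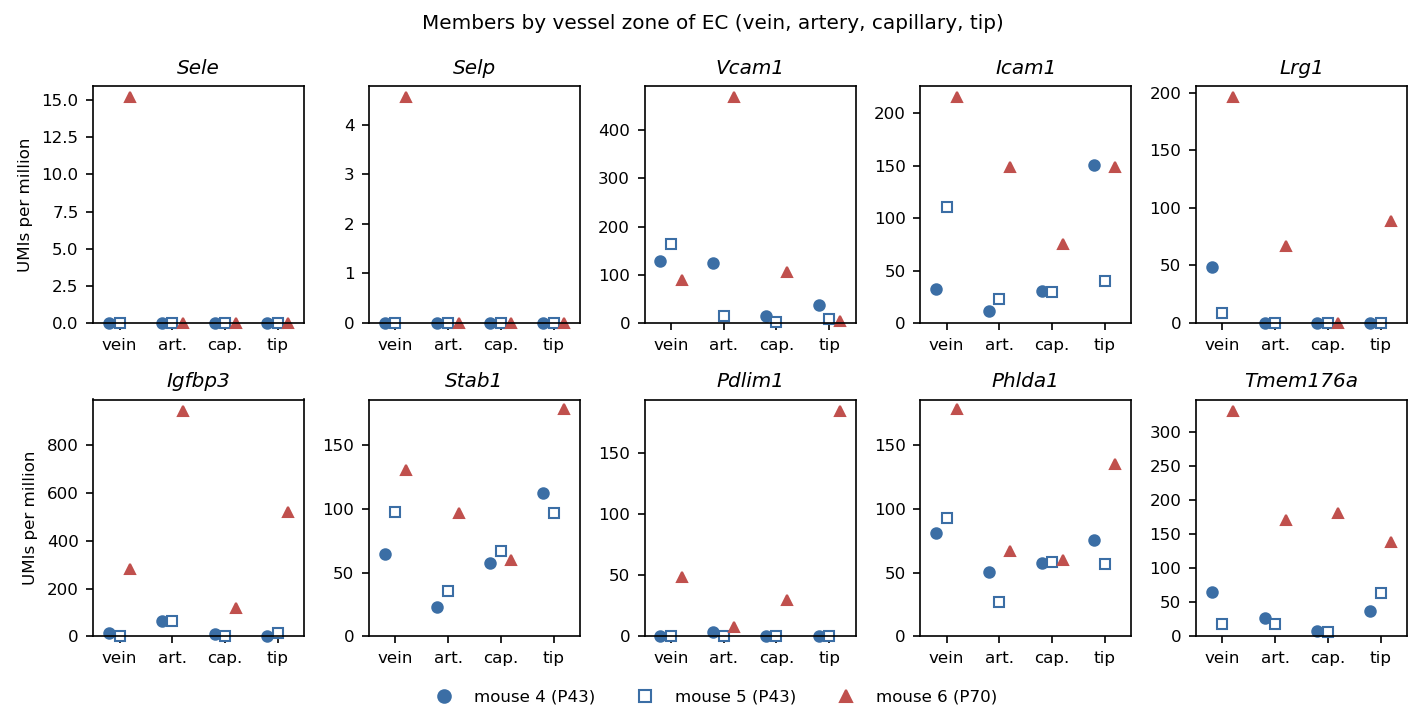
Level of each gene in CPM in vein, artery (art.), capillary (cap.) and tip EC of mouse 4 (filled circle, P43), mouse 5 (open square, P43) and mouse 6 (triangle, P70), on linear axes that start at 0 and differ between panels. Lrg1 is at 0 in capillary EC of the 3 mice, and Vcam1 of mouse 6 is highest in artery EC, where 1 cell held 53 of 63 UMIs.

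The zone levels of both ages are given side by side as a description, since the members were picked on EC of these mice. In capillary EC Vcam1 stood at 105 CPM in mouse 6 (7 UMIs) against 13.5 and 1.90, and Tmem176a at 181 against 7.69 and 6.66. Stab1 and Phlda1 in capillary EC of mouse 6 were at 60.2 for each, from 4 UMIs each (counting interval 16.4 to 154). At P43 Stab1 was at 57.6 and 66.6 there and Phlda1 at 57.6 and 58.1. The interval also holds their levels over all EC of mouse 6, 133 and 150.5. In vein EC Vcam1 of mouse 6 (88.2) lay below both P43 mice, whereas Igfbp3 was 281 against 16.1 and 0. Igfbp3 was highest in artery EC, at 65.9 and 64.4 CPM at P43 and 945 in mouse 6. Pdlim1 in tip EC had 56 UMIs (185 CPM) in mouse 6 and 0 in tip EC of the P43 mice. Vcam1 in artery EC was 124 and 14.5 at P43 and 469 in mouse 6, where 1 of 21 cells held 53 of the 63 UMIs.

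The genes around the members in EC were tested from 9 lists that hold none of them, in the same edgeR fit, where 6.14% of 8876 genes were higher at P70 and 3.45% lower. In all, 45 genes of the lists were called. The lists were chosen with earlier results of these data known, so nothing is read from the counts called per list or from the list medians. Esm1 and Tnfrsf11b, with 0 UMIs at P43, passed the filter only through their P70 counts. The same holds for Ptgs2, Tnfaip2 and Ch25h, and Smad6 passed only through its P43 counts. Nothing is read from the calls of these genes. The 13.4 CPM of Ptgs2 and of Ch25h in mouse 7 is 1 UMI each. DESeq2 called fewer, among them 2 NF-kB, 4 vein and activation, 5 TGF-beta and BMP, 2 IGF, 7 immediate early and 1 coagulation gene. Of the genes named below, its adjusted p was 0.0594 for Tnfaip2, 0.182 for Tek, 0.0862 for Ptgis, 0.293 for Thbd, 0.157 for Nos3, 0.668 for Smad6, 1 for Igf2r and 0.189 for Itga4, and it gave none for Ch25h. Among NF-kB signalling and target genes 8 of the 18 tested rose and 0 fell. Ptgs2, the inducible cyclooxygenase, rose from 2.04 and 1.02 CPM to 49.1 and 13.4 (log2 fold change 5.03 ± 0.60, edgeR adjusted p = 5.89e-05). Tnfaip2 rose from 2.04 and 0 to 23.3 and 26.8 (edgeR adjusted p = 0.00115), and Cxcl1, a neutrophil chemokine, from 11.2 and 9.19 to 69.0 and 174 (3.18 ± 0.39, edgeR adjusted p = 7.28e-05). The median log2 fold change of the list was 1.07, with Ptgs2 and Tnfaip2 included, and that of all genes tested was -0.03. In mural cells edgeR called 12 of 17 genes of this list higher and 0 lower, and DESeq2 called 9. Over all 8624 genes tested there, 10.8% were higher and 7.76% lower. Nothing is read from this count either, since the list is the same.

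Of the vein and vessel activation genes 7 of 10 rose and 1 fell (median 2.63, with Esm1, Tnfrsf11b and Ch25h included). Esm1, a proteoglycan of tip cells, had 0 UMIs at P43 and 26.6 and 495 CPM at P70 (edgeR adjusted p = 0.0031). From pooled UMIs the counting interval of its ratio starts at 41.96, which leaves out the spread between mice. Tnfrsf11b, a decoy receptor of the TNF family, had 0 UMIs at P43, and its interval by the same measure starts at 30.09 (edgeR adjusted p = 3.04e-05). Ch25h rose from 3.05 and 0.510 to 26.6 and 13.4 (edgeR adjusted p = 0.00123). Tek, the angiopoietin receptor, fell (-0.91 ± 0.23, edgeR adjusted p = 0.0174). Among coagulation genes 6 of 11 rose and 2 fell. Vwf, von Willebrand factor, rose from 120 and 66.3 to 490 and 442 (2.48 ± 0.26, edgeR adjusted p = 2.26e-05), and so did Ptgis (2.31 ± 0.33). The anticoagulant receptor Thbd fell (-1.17 ± 0.27, edgeR adjusted p = 0.012), as did Nos3, the endothelial nitric oxide synthase (-1.09 ± 0.23, edgeR adjusted p = 0.0059).

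**Figure D5:**
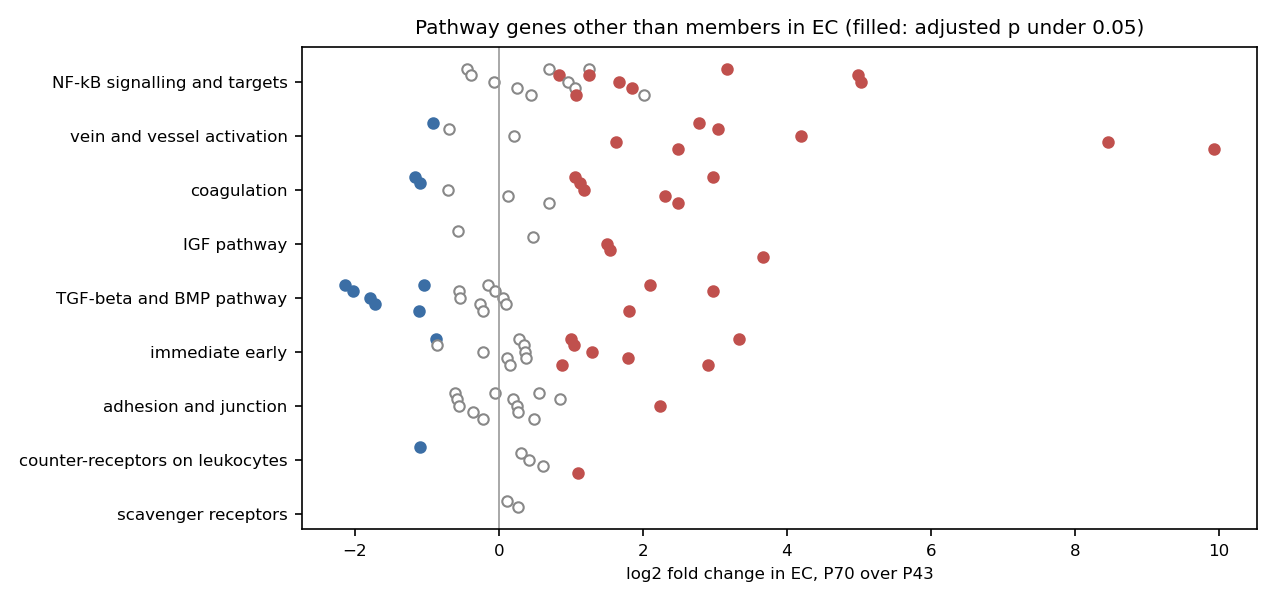
Log2 fold change at P70 over P43 in EC of the genes of 9 lists that passed the filter, from edgeR, 1 point per gene and 1 row per list, filled where the adjusted p was under 0.05 (red higher, blue lower) and open otherwise. NF-kB, vein activation and IGF genes lie mostly to the right, and TGF-beta and BMP genes on both sides.

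The partners of Lrg1 and Igfbp3 moved as follows. Of the TGF-beta and BMP genes 3 of 17 rose and 6 fell (median -0.25). The BMP target Id1 fell from 1699 and 1760 CPM to 393 and 321 (-2.13 ± 0.23, edgeR adjusted p = 2.48e-05), and the inhibitory Smads fell as well, Smad6 by 2.03 and Smad7 by 1.79 on the log2 scale. Bambi, a decoy receptor, rose (2.10 ± 0.26, edgeR adjusted p = 8.04e-05), and so did Smad1 (1.81 ± 0.22, edgeR adjusted p = 6.96e-05). Of the IGF pathway 3 of 5 genes rose and 0 fell, namely Igfbp4 (19.3 and 12.8 to 205 and 93.7), Igfbp7 (2236 and 2202 to 7166 and 5007) and Igf2r (1.51 ± 0.38). In the adhesion and junction list 1 of 13 genes rose, Mcam (2.23 ± 0.30, edgeR adjusted p = 0.000161), and Pecam1, Cdh5 and Icam2, adhesion molecules of resting endothelium, had log2 fold changes of 0.26 ± 0.21, 0.49 ± 0.21 and -0.36 ± 0.21 with no call. The list of counter-receptors had Itga4 higher and Golim4 lower among 5 genes, the latter a Golgi protein that is no ligand of these molecules. Both tested scavenger receptors beside Stab1, Scarb1 and Scarf1, were not called (edgeR adjusted p = 0.849 and 0.623), 0 had an unadjusted p under 0.05 and DESeq2 called 0.

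Immediate early genes, which tissue digestion can induce, also differed in EC: 7 of 16 rose and 1, Klf2, fell. Nr4a1 rose from 23.4 and 31.6 to 264 and 281 CPM (3.34 ± 0.25, edgeR adjusted p = 1.09e-06), Atf3 from 76.3 and 115 to 388 and 1312 and Fos from 237 and 483 to 1026 and 1473. Summed over the list, however, the ages overlapped, with 9180 and 12410 at P43 and 10090 and 16750 at P70. The part of these genes, of the Myeloid RNA and of the lower Hbb-bs in the levels of the members was not tested. The EC calls rest largely on mouse 6: without it 0 of the list genes were called by edgeR, without mouse 7 24 and without mouse 5 26, and DESeq2 on all mice called 22. With EC that held UMIs of other classes left out, 38 were called.

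Over 33 points of a class and a mouse with at least 20 cells, the genes most like a member were found by Pearson's r of log2(CPM + 10) among 9578 genes, as a description. The points share libraries and depth. Vcam1 was nearest to Abca1 (r = 0.819), a cholesterol exporter, then Csf1 (0.782) and Lhfpl2 (0.731), and these 3 were also found outside EC, Abca1 at 218 CPM in astrocyte-like tumor cells of mouse 6. Lrg1 was nearest to Adgrg3 (0.814), Lcn2 (0.779) and Bmx (0.750), all of which were highest outside EC in neutrophils of mouse 6. Sele was nearest to Ackr1 (0.763), a chemokine receptor of venules, Slco2a1 (0.734) and Scgb3a1 (0.718). Ackr1 was at 0 in EC of mice 4, 5 and 7 and at 151 CPM in mouse 6, so the likeness for Sele rests on that 1 point.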

How the data were processed

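The authors processed the reads of each mouse with Cell Ranger 6.0.2 against mm10. They deposited UMI counts that were not normalized, for each gene and cell (3′ v3.1 chemistry, vital cells after papain digestion). Cells were kept with at least 200 genes, no more than 40000 UMIs and a mitochondrial share under 25%, and genes if found in at least 3 cells, the upper UMI limit standing in for a doublet caller as in the study. Cells were integrated and clustered with Seurat 5.3.0 (30 components, resolution 0.5) and 19 clusters were named from markers, and those where the MYCN and luciferase transgenes reached 500 CPM were called tumor. UMIs were summed per class and mouse and tested with edgeR 4.0.16 (TMM, filterByExpr), with DESeq2 1.42.0 as an alternative. The scripts were tested on simulated data. Members and lists were chosen with earlier results of these data known. The text names all 10 members, the counter-receptors, defining markers, and, as list genes, the up to 3 that rose most and the up to 3 that fell most per list among those called in EC. Pecam1, Icam2 and Hbb-bs were added after their values were seen. Some items are not reported here. Zones needed 2 UMIs of the leading list. P-values of the age tests rest on 2 mice per age and on a variance estimate shared across genes. Those of vein against capillary EC rest on differences within mice 4, 5 and 6. Counting intervals are exact (Poisson or binomial, 95%).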

Additional observations from a re-analysis of the deposited data

How the results depend on the processing

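The order of the 10 genes in EC held for 7 to 10 of them, and for 9 to 10 when 1 mouse was left out. EC stood above the other 3 classes in 19 to 20 pairs. The list genes called in EC were 45, with 22 by DESeq2 and 0 to 33 when a mouse was left out (0 without mouse 6). Calls in mural cells were 1600, with 558 by DESeq2, 756 without cells holding UMIs of other classes (chosen after seeing the data) and 484 to 2035 with a mouse left out (1031 without mouse 5, 484 without mouse 6). Myeloid calls were 19, with 85 by DESeq2, 304 without the filter and 3, 76, 321 and 467 without mouse 4, 5, 6 or 7, and DC calls were 90, with 354 without the filter and 171, 22, 168 and 0 without mouse 4, 5, 6 or 7. OL-like calls were 0, with 50 by DESeq2, 2 without the filter and 0 with any mouse left out. Vein against capillary calls were 46, with 5 by DESeq2 and 13 to 49 with a mouse left out (13 without mouse 4, 16 without mouse 5). The cause was not tested. Lone P43 or P70 samples in these fits are assumed to vary like the other group. Without mouse 6 the median of all genes moved by -0.17 (EC) and -0.12 (mural) on the log2 scale. No called value changed sign under these alternatives. No paired analysis was possible because replicate numbers do not mark shared litters or days. The 36 EC of mouse 7 limit what P70 values show beyond mouse 6.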
